A study of Saccharomyces cerevisiae with 28 samples.

Results

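The guides described here are 104 CRISPR guides of a genome-wide repression library that were sequenced from every low fluorescence sample of the screen and from no high fluorescence sample. They were chosen by read counts alone, as guides with at least 50 reads in each of the 4 low fraction libraries and 0 reads in each of the 4 high fraction libraries. Of the 40890 guides in the table, 5830 reached the low fraction minimum, and the 104 lost guides are 1.78% of those. The guides they are compared with are the 2531 retained guides, 43.4% of the 5830, which met the same minimum and had at least 1 read in all 4 high fraction libraries. Since both sets were chosen by their reads in these 8 libraries, their reads there are given as a description, with no test.

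The study sorted yeast for secretion of α-amylase, a starch-degrading enzyme, and sequenced the guide plasmids of the sorted cells. All libraries came from Ethanol Red, a diploid industrial bioethanol strain of Saccharomyces cerevisiae carrying an α-amylase cassette at the HO locus, and single cells were enclosed in droplets with a fluorescent amylase substrate and with anhydrotetracycline, which switches on guide expression. The brightest droplets formed the high fraction and the others the low fraction, and the recovered cells grew overnight on geneticin plates without the inducer before their plasmids were extracted. Repression libraries carried dCas9, the Cas9 protein with its nuclease inactivated, joined to the Mxi1 repressor, and were sorted in 2 rounds with 2 replicates each. Activation libraries carried dCas9 joined to the VPR activator and were sorted in 4 rounds of the main screens, with 2 replicates each, and in 1 early round with 2 replicates. In both kinds of library the dCas9 fusion was made all the time, and the labels do not say whether replicates came from separate cultures, so the spread between them may be technical.

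In CRISPR interference, a guide leads dCas9 and its repressor to a matching site beside a short motif called the PAM, and transcription from a nearby promoter is hindered. The bases of the guide next to the PAM pair first and tolerate mismatches least. In a pooled sort, each guide serves as the barcode of the cells that carry it, so a guide absent from a fraction means that no plasmid with it was read there, whether few cells held it or few of those cells were sorted. A cell that secretes an enzyme passes it through the endoplasmic reticulum (ER), where it folds and where misfolded chains are marked for degradation, and then through the Golgi to the surface.

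The lost guides most abundant in the low fraction are shown first, because their absence from the high fraction is the least affected by few reads. They are ranked by their smallest abundance over the 4 low fraction libraries, in CPM, its reads divided by the total of the library and put on a common scale of 1000000 reads. Each guide is written 5′ to 3′, and capitals mark the 10 bases next to the PAM.
rank 1: atttttctatTTCATTTGCC
rank 2: ctcaaattaaATCTCAGTTC
rank 3: aaacaacgttAATATGAACC
rank 4: ccgcttattgATGTGCACAC
rank 5: cgaatacgaaGCGCTGAATG
rank 6: taattttttgATTTTAAATG
rank 7: gatgtcaataCCCATAACGA
rank 8: gagggagaacCTGTTAAAAG
rank 9: aaaatatgcgAAACTGAAGG
rank 10: ataattatggTTGATCTTTG

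A second set is shown because it is the one for which a target was listed. Only part of the study's supplementary guide list was used here, rows from 2 result lists of the activation screens, and these rows pair 9 of the 104 lost guides with a gene or noncoding transcript. The number says nothing of the targets of the other 95 guides, and the guide of rank 3 belongs to this set as well, with HSV2 as its target.
CUT577: gtgatgaatcAGACATTGTC
CUT813: agaagtattaTAAAGGATTA
SUT134: gtaatgcgaaCCTCCAACGT
PHO2: aacaatagtcTTTTAACATG
YDR133C: cctttcagggACCAGTGCAG
PKH1: ggttatatgcTAAAATAAGT
UBC6: gtgtaccgttATCTAAAGTG
HSV2: aaacaacgttAATATGAACC
GYL1: gcgctcctagAGGGAAACGA

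Repression libraries of the high fraction had 1842307 to 3346567 reads and those of the low fraction 1603093 to 3359719, so the high fraction was sequenced about as deeply, with 11067694 reads in all against 10115723. Reads do not tell how many cells were sampled, and the high fraction came only from the brightest droplets. Its libraries held 6362 to 9937 guides of the table, against 18248 to 20701 in the low fraction. The part of cell numbers in the zeros was not tested. A count of 0 allows up to 3 reads, which is 0.896 to 1.63 CPM in a single high library and 0.271 CPM in the 4 pooled. Such limits cover counting error alone, because the amplicons carry no molecular identifiers and several reads can stem from 1 plasmid. Absence from a single high library was common. Among the 5830 guides, 21.3% were at 0 in replicate 1 and 16.8% in replicate 2 of round 1, and 21.5% and 38.0% in those of round 2. The high library of round 2 replicate 2 stood apart, with 36.2% of the 5830 guides at 1 to 4 reads, against 7.80% to 11.2% in the other 3, and with a median of 4 reads per retained guide, against 242 to 436. Without this library, 140 guides had no read in the remaining 3 high libraries and 3344 had reads in all 3. The base shares at the guide ends, GC content and detection in the activation libraries are also given without it below, and all other values rest on the rule with all 4 high libraries.

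In the low fraction the lost guides were sparse. Their mean abundance ranged from 24.8 to 111.5 CPM with a median of 45.3, while the retained guides had a median of 137 and reached 2252 CPM. The median lost guide had 123.5, 108.5, 79.5 and 114.5 reads in the low libraries of round 1 replicates 1 and 2 and round 2 replicates 1 and 2, the order in which reads are given throughout, against 452, 334, 219 and 366 for the median retained guide. The difference was thus present in all 4 low libraries. The coefficient of variation of a lost guide over the 4 low libraries had a median of 38.6% and a range of 11.9% to 88.4%. Against the limit of 3 reads over the pooled high fraction, the lost guides were at least 87.2-fold to at least 417-fold lower than in the pooled low fraction, with a median bound of 166-fold.

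The share of lost guides went down as low fraction reads went up. Of guides whose smallest low count was 50 to 74 reads, 72 of 1467 were lost (4.91%), and of those with 75 to 99 reads, 19 of 988 (1.92%). With 100 to 149 reads the share was 11 of 1203 (0.914%), and with 150 to 199 reads 2 of 660 (0.303%). None was lost among the 704 guides with 200 to 299 reads, the 508 with 300 to 499 or the 300 with 500 or more. Retained guides followed the opposite order, from 16.3% of the guides with 50 to 74 reads to 97.0% of those with 500 or more. Because of this gradient, sequence features and other readouts are also given within the guides of 50 to 99 reads, which hold 91 of the lost and 514 of the retained guides. Even there the lost guides were the sparser ones, with a median mean abundance of 43.6 CPM against 65.7. The part of low fraction abundance in the results that follow was not tested beyond this restriction.

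The guide of rank 1 had 345, 328, 141 and 329 reads in the low fraction, or 111.5 ± 20.2 CPM (SD, n = 4), and was at least 417-fold lower in the high fraction. The guide of rank 2 had 291, 298, 136 and 219 reads, or 93.5 ± 18.6 CPM (SD, n = 4), and was at least 344-fold lower. Both varied little across the low libraries, with coefficients of variation of 18.1% and 19.9%. The guide of rank 4 was less even, with 487, 185, 93 and 174 reads, and so was that of rank 9, with 556, 156, 209 and 127 reads. The guide of rank 5 had 192, 357, 164 and 157 reads and a mean of 90.7 ± 41.9 CPM (SD, n = 4). For these 3 guides, 1 library held the largest count by a wide margin, and the smallest count still was 93 reads or more. The guides of ranks 6, 7, 8 and 10 had means of 62.6, 57.3, 74.9 and 61.0 CPM, and were at least 222-, 218-, 260- and 221-fold lower in the high fraction.

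At the edges of the rule, small differences in reads decided membership. Just inside it were taaagagcttGTTTTCTTCG with 63, 75, 50 and 51 low fraction reads, agtcttccatTGTATTACCA with 70, 76, 50 and 88, and agaaactccaAAATGAGCGT with 116, 50, 92 and 51. Just outside it were gtttaccgtcAACCTGGTGA with 49, 64, 129 and 195 reads, aataaatacaCACACACATA with 135, 135, 93 and 49, and gtacgccaagTTTTACCTTG with 94, 137, 98 and 49, all at 0 in the high fraction. The low counts of the guides inside and outside overlapped in 3 of the 4 libraries. A total of 83 guides with a smallest low count of 40 to 49 reads had no high fraction read, and 37 of the 104 lost guides lay at 50 to 59.

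On the high fraction side, 97 guides met the low minimum and had exactly 1 read over the 4 high libraries. The most abundant of them in the low fraction were tgtttgttttTTCCTTTACC with 449, 629, 304 and 447 reads, gtttttacttCCATCCATCG with 300, 324, 275 and 306, and aaagatttgcAAAATTACGG with 334, 186, 313 and 206. Their smallest low counts of 304, 275 and 186 reads lay above the 157 reads that were the highest smallest count of a lost guide. A single read in round 2 replicate 2, round 2 replicate 1 and round 1 replicate 2 respectively kept them outside the rule. The single reads of the 97 guides fell in all 4 high libraries, with 16 and 26 in round 1 and 27 and 28 in round 2. Under 5 reads in every high library were found for 291 guides, the lost ones included. Reads were also few in single libraries for many retained guides, since 1560 of the 2531 had under 5 reads in at least 1 high library. The high library of round 2 replicate 2 weighs in this count. Its median was 4 reads per retained guide, against 242 to 436 in the others.

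The retained guides with the highest smallest high fraction abundance show the other end. The guide acgtttacacACATAGTGTT had 3657, 2476, 1014 and 2077 reads in the low fraction and 3555, 3452, 2056 and 3344 in the high fraction. For gcattgatgaTGACTTATGC the counts were 2501, 1640, 1016 and 1886 in the low and 4813, 3996, 1932 and 15133 in the high fraction. The guide gggctggttaCAGCAAGGGG, paired with YNR071C, had 6673, 3107, 2035 and 4707 reads in the low and 6471, 6653, 2372 and 2527 in the high fraction. The fractions overlapped for the first and the last of these guides, whereas for gcattgatgaTGACTTATGC 3 of the 4 high counts lay above every low count, the highest of them in the library that stood apart.

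Of the lost guides paired with a gene, 2 concern the ER and membrane traffic. UBC6 (YER100W, chromosome V, 359562 to 360314, R64 assembly) encodes a ubiquitin-conjugating enzyme of the ER membrane that marks misfolded proteins for degradation. Its lost guide had 132, 73, 77 and 172 low fraction reads. A second guide of UBC6, gaacaatagaTGATATGAGG, was retained, with 322, 511, 442 and 655 reads in the low fraction and 1681, 437, 659 and 5 in the high fraction. Both guides share a target, and the 5 reads of the retained one were in the library that stood apart. By the rule, a lost and a retained guide differ in every high library, so nothing is read from their difference there. The retained guide was also the more abundant of the 2 in every low library. GYL1 (YMR192W, chromosome XIII, 647118 to 649280), which acts in polarized secretion together with a Rab GTPase-activating protein, had a lost guide with 189, 116, 68 and 137 reads, the most even of all lost guides at 49.2 ± 5.85 CPM (SD, n = 4).

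The other gene targets are HSV2, PHO2 and PKH1, which have different known roles, and the open reading frame YDR133C. HSV2 (YGR223C, chromosome VII, 940869 to 942215) encodes a phosphoinositide-binding protein of selective autophagy, and its guide had 198, 252, 131 and 173 reads. PHO2 (YDL106C, chromosome IV, 270222 to 271901) encodes a homeodomain transcription factor of the phosphate and purine pathways, and its guide had 58, 211, 92 and 298 reads. PKH1 (YDR490C, chromosome IV, 1431968 to 1434268) encodes a protein kinase of sphingolipid signalling, and its guide had 64, 105, 70 and 109 reads. YDR133C had no entry among the R64 genes used here, so no role is given for it, and its guide had 701, 152, 148 and 120 reads. Abundance in the low fraction varied least for HSV2, with a coefficient of variation of 25.6%, against 32.1% for PKH1, 59.2% for PHO2 and 72.6% for YDR133C.

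The remaining 3 targets are noncoding transcripts. SUTs are stable unannotated transcripts, and CUTs are cryptic unstable transcripts that are degraded soon after they are made. The SUT134 guide had 69, 61, 83 and 102 reads, the CUT577 guide 102, 86, 103 and 246, and the CUT813 guide 98, 144, 87 and 166. A second CUT813 guide, gtagggtctaAAACAGTACC, had 24, 158, 0 and 102 low fraction reads and no high fraction read, so it was below the low fraction minimum and is not among the 104.

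Each of the 9 features had 1 lost guide, and no feature had several. Among the 1626 guides with a listed target that met the low minimum, 9 were lost (0.554%), while 95 lost guides had no target in the rows used here. Those rows come from activation results, so guides rarely sequenced under activation seldom have one, and the percentage is not comparable with the 1.78% over all guides. By kind of target, 6 of 1197 guides of open reading frames (0.501%), 1 of 198 SUT guides (0.505%), 2 of 211 CUT guides (0.948%) and 0 of 20 guides of structural RNAs were lost. These shares differ by 1 or a few guides. For 138 features at least 2 listed guides met the low minimum, and in only 1 of them, UBC6, was a guide lost. Of 16 lists of genes by function, from ER translocation to mitochondrial ribosomes and autophagy, 1 held a lost guide, namely ER folding, glycosylation and degradation with 1 of 12 guides, that of UBC6. The autophagy list, with 0 of 12 guides lost, did not include HSV2, whose guide was lost. The lists could be searched only among the 1626 guides with a target listed here, 9 of them lost, so lost guides of any of these groups may be among the 95 without one.

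Guides whose sequences overlap were compared after their values had been seen. The overlap was taken from the guide sequences alone, with no match to the genome. Among the 104 lost guides, 18 shared at least 14 bases with another guide of the table, 22 overlapping guides in all, of which 15 lay on the same strand and 7 were shifted by 1 base. The share of all guides with such a neighbour is not given here. Only 11 of the 22 had any low fraction read in the repression libraries, 8 had high fraction reads and 3 met the low minimum. Those 3 are shown with their lost neighbours, and capitals mark the shared bases here.
lost, pair A: ACCAACATTGGTGAAACTGc
neighbour, pair A: tACCAACATTGGTGAAACTG
lost, pair B: tgtTGTCCAGTTTCTCAAGC
neighbour, pair B: TGTCCAGTTTCTCAAGCagg
lost, pair C: tGGAACTTTAAAAGGAATGT
neighbour, pair C: GGAACTTTAAAAGGAATGTg

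In pair A, which shares 19 bases, the lost guide had 76, 56, 57 and 99 low fraction reads, and its neighbour had 140, 94, 182 and 140 in the low and 0, 1066, 238 and 504 in the high fraction. In pair B, with 17 shared bases, the lost guide had 61, 65, 68 and 84 low fraction reads, and its neighbour 415, 315, 177 and 450 in the low and 353, 343, 0 and 0 in the high fraction. In pair C, again with 19 shared bases, the lost guide had 114, 76, 159 and 61 low fraction reads. Its neighbour, paired with LDB18 (YLL049W), a subunit of the dynactin complex, had 588, 538, 466 and 478 in the low and 64, 540, 5 and 2 in the high fraction. In all 3 pairs the neighbour was the more abundant guide in all 4 low libraries and was read in at least 2 high libraries. Since 1.78% of all guides with the low minimum were lost, a neighbour that was not lost is the usual case, and nothing about the shifted sites is read from these pairs. Over the whole table, 116 overlapping pairs had both guides above the low minimum. Both were lost in 0 of them, 1 was lost in 3, both were retained in 30, and in 50 pairs 1 guide was retained while the other was missing from at least 1 high library.

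The sequences of the lost guides differed from those of the retained guides mainly at both ends. Guanine was the first base of 28.8% of the lost and 58.0% of the retained guides, and guides read in 1, 2 and 3 high libraries lay between, at 36.0%, 41.3% and 47.2%. Over all 40890 guides the share was 20.3%, and over the 5830 with the low minimum it was 49.5%. Adenine was the first base of 46.2% of the lost and 28.2% of the retained guides. At the last base, next to the PAM, adenine stood in 22.1% of the lost, 6.64% of the retained and 33.5% of all guides, and guanine in 39.4%, 54.0% and 36.7%. For guanine at both ends and adenine at the last base, the lost guides thus lay between the retained guides and the table as a whole. Over all 20 positions, these 4 differences between lost and retained guides were the largest, and the next was guanine at position 18, counted from the 5′ end, with 13.5% against 24.4%.

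Within 50 to 99 reads, where the lost guides were still the sparser ones, the first base was guanine in 31.9% of 91 lost and 47.7% of 514 retained guides, the last base adenine in 24.2% and 10.9%, and the last base guanine in 36.3% and 47.9%. Within 100 reads or more, which hold 13 lost and 2017 retained guides, 1 of the 13 began with guanine (7.69%, against 60.6%) and 1 ended in adenine (7.69%, against 5.55%), while guanine at the last base turned its order, with 61.5% of the lost and 55.5% of the retained. Without the high library that stood apart, the 140 guides at 0 began with guanine in 29.3% and ended in adenine in 21.4%, against 55.3% and 7.39% of the 3344 retained ones. GC content differed little, and without that library its medians were likewise 35% and 40%. Over all 4 libraries the median was 35% in the lost, 40% in the retained and 40% in all guides, and within 50 to 99 reads the order turned, with 40% in the lost and 35% in the retained. A run of 4 thymines, written TTTT, occurred on the guide strand in 11 of the lost guides (10.6%), among them those of ranks 1 and 6, in 12.9% of the retained guides and in 11.3% of all guides. No group of lost guides shared the same 10 bases next to the PAM.

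The activation libraries, which the choice of guides did not use, were counted on the same guides, here with dCas9–VPR. Across the 8 main high fraction libraries of activation, 3.85% to 14.4% of the lost guides had at least 1 read, with a median of 9.13%, and 51.4% to 77.7% of the retained guides, with a median of 69.3%. The ranges did not overlap, and the guides read in 1, 2 or 3 repression high libraries had medians of 21.6%, 33.1% and 46.8%. In the 8 main low fraction libraries of activation, 20.2% to 63.5% of the lost guides were read (median 48.1%) and 64.5% to 95.4% of the retained (median 86.0%). The lost guides were thus read less often than the retained in the low fraction of activation as well, without overlap between the ranges. Over the 5830 guides with the low minimum, the medians were 51.2% in the main activation high and 73.2% in the low libraries. Over all 40890 guides they were 12.4% and 20.2%, so the lost guides lay below that share in the high and above it in the low libraries. The 2 early low libraries held 25.0% and 55.8% of the lost and 63.8% and 85.5% of the retained guides, and the 2 early high libraries 12.5% to 13.5% and 44.2% to 45.6%. Detection in a library is a share of guides, which are not replicates, and it is given with no test.

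Among guides of 50 to 99 repression low fraction reads, the medians over the main activation libraries were 7.14% of the lost and 52.9% of the retained guides in the high fraction, and 43.4% and 67.2% in the low fraction. The gap was narrower than over all guides in both fractions, and in the low fraction the ranges now overlapped, with 18.7% to 63.7% for the lost and 42.8% to 86.2% for the retained. In the high fraction they stayed apart, at 4.40% to 15.4% and 37.0% to 66.5%. Without the repression library that stood apart, the median of the lost guides in the activation high fraction was 8.93% and that of the retained 65.1%, and in the activation low fraction they were 50.4% and 82.9%. Counting only guides with at least 5 reads, the activation high libraries held a median of 0.481% of the lost and 20.9% of the retained guides.

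Over all 8 main activation high libraries, 54 of the 104 lost guides had no read at all (51.9%), against 22 of the 2531 retained (0.869%). Another 46 had reads but under 5 in each of these libraries, and 4 had at least 5 reads in 1 or more of them (3.85%). Of the retained guides, 1696 of 2531 reached 5 reads in 1 or more of them (67.0%). In the low fraction of activation, 75 lost guides (72.1%) and 2474 retained guides (97.7%) reached 5 reads in at least 1 library, and 35 lost guides did so without a read in any main activation high library. The PKH1 guide was the only lost guide with reads in all 8 main activation low libraries, 588 in total, and it had none in the high ones. Of the retained guides, 1071 of 2531 had reads in all 8 low libraries (42.3%). The HSV2 guide had 472 reads in 6 activation low libraries and none in the high ones. In contrast, 5 lost guides were absent from all 20 activation libraries, among them that of rank 7. The counts of 35 and 5 guides are given for the lost guides only, with no share over the retained ones. No count over several libraries here has the share over all 40890 guides beside it. Per main activation high library, a median of 12.4% of all 40890 guides was read, against 9.13% of the lost, so absence there was the usual case.

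The 4 lost guides with 5 or more reads in a main activation high library were picked after their values had been seen. The guide aagtacaactACGTAAGCGG had 1867 reads in the high library of round 4 replicate 1, 98.9% of its 1887 activation high fraction reads, with 15, 4 and 1 in 3 others and 0 in the remaining 4. The rank 6 guide had 779 of 789 reads in that same library (98.7%), and tggaactttaAAAGGAATGT, the lost guide of pair C, had 653 of 656 reads in round 3 replicate 2 (99.5%). The rank 4 guide had 24 of 25 reads in round 2 replicate 2 (96.0%). Each of the 4 thus had at least 96.0% of its reads in a single sort replicate, and in the other 7 the counts were 15 reads or fewer.

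Only aagtacaactACGTAAGCGG passed the filter on low counts for the main activation comparison, and it was called enriched, as were 69.5% of the 1166 guides tested, while 3.34% were depleted. Its low fraction reads were 13, 1, 9, 1, 70, 0, 332 and 138 in rounds 2 to 5, replicate 1 before replicate 2, and the fractions overlapped. It averaged 109 ± 301 CPM in the high fraction and 49.2 ± 52.5 CPM in the low fraction (SD, n = 8 each), and its log2 fold change was 7.35 with a standard error of 1.87 (Benjamini-Hochberg adjusted p = 0.00068, edgeR likelihood ratio test). The fold change is relative to the RLE factors of that fit, under which the median of all tested guides was 4.68. With TMM factors the guide was at 6.08 and the median at 2.14, and 452 of the 1166 guides were enriched and 112 depleted, against 810 and 39 with RLE factors. With DESeq2's Wald test it was at 0.68 (adjusted p = 0.680) and the median at -0.06, with 281 guides enriched and 42 depleted. Without round 4 it was at 0.77 (adjusted p = 0.497, edgeR), and without replicate 1 of round 2 or of round 4 it was not tested.

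In the early activation screen, 11 lost guides had at least 5 reads in a high library. By library, 4.81% to 5.77% of the lost guides reached 5 reads there. The shares were 20.4% to 28.9% of the retained and 14.1% to 19.7% of the 5830 guides with the low minimum. The CUT577 guide had 3700 reads in replicate 1 and 1 in replicate 2 of the high fraction, and 2 and 26 in the low fraction. The guide tcgattacacATTAATTATT had 2251 reads in replicate 1 of the high fraction and none in replicate 2, and 2 low fraction reads. The YDR133C guide had 568 high fraction reads, all in replicate 2, and 492 in the low fraction, while the CUT813 guide had 314, all in replicate 1, and 169 in the low fraction. As in the main activation screens, high fraction reads of a lost guide came mostly from 1 replicate, which held 85.7% to 100% of them in these 11 guides.

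Of the 15 lost guides tested in the early screen, 4 were depleted in the high fraction at log2 FC under -8 and FDR under 0.1, where 21.2% of all 3215 tested guides were depleted, and none was enriched, where 1.21% were. Before adjustment, 8 of the 15 had a p under 0.05 in edgeR's likelihood ratio test, among them the CUT577 guide in the enriched direction. The share over all 3215 tested guides is not given, so nothing is read from counts before adjustment here. The depleted ones were the guides of UBC6, PHO2 and SUT134 and the unpaired ccgacccagcCTGAATTCAA, each with a Benjamini-Hochberg adjusted p of 0.0797 and no read in either high library. Their low fraction abundances were 117.9 ± 91.6, 229.4 ± 271, 107.5 ± 13.9 and 50.8 ± 38.1 CPM (SD, n = 2 each). The count of 4 in 15 is close to the background, and it was 0 with glmQLFTest, where 6 had an unadjusted p under 0.05. With DESeq2's Wald test, none of the 15 passed as depleted and the CUT577 guide passed as enriched, at 10.78. In that test 212 of the 3215 guides were enriched and 161 depleted, against 39 and 681 in edgeR. The 4 guides depleted in edgeR stayed negative, at -7.82 to -5.62 (adjusted p 0.0247 to 0.0354, Wald test), short of the limit of -8. The CUT577 guide, at a log2 value of 10.77 for high over low with a standard error of 5.18, did not pass in edgeR, its adjusted p being 0.139 (likelihood ratio test). A guide that passed the low-count filter through the fraction in which it was abundant could hardly show any other direction, so these counts are given as a description.

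In the fit of the repression libraries, which the choice of guides used, all 104 lost guides were tested and depleted in the high fraction, where 13.5% of 13403 tested guides were depleted and 5.37% enriched. Their fitted log2 fold changes lay between -10.90 and -8.74, with a median of -9.60, and depend on the prior count because all high libraries are at 0. Nothing about the guides is read from this count.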

How the data were processed

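Guide amplicons of 28 libraries were used. The deposited counts are reads per guide and library, which the authors obtained by demultiplexing with Je, BWA alignment against the guide sequences with padding, and an R script for the table. They are not normalized, and each replicate has its own column. Tool versions are not given in the sources used here. The submitters' processing notes name the sacCer3 build. Value columns not used numbered 0.

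From these counts, CPM were computed on library totals, which were 1603093 to 3359719 reads in the repression and 50433 to 2464879 in the main activation libraries. Guides were chosen and compared by reads. The members and the lists were chosen with earlier results of these data known. High and low fractions were also fitted over the whole table, per screen, with edgeR 4.0.16 in R 4.3.3 (filterByExpr, RLE factors, glmFit, glmLRT, prior count 0.125, Benjamini-Hochberg adjustment), all libraries of a fraction being replicates as in the study's methods. Calls needed a log2 fold change beyond 3 and FDR under 0.05, in the early screen beyond 8 and under 0.1. Standard errors were the fold change divided by the root of the likelihood ratio statistic, and the p-values measure only the spread between these libraries. DESeq2 1.42.0 was an alternative.

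Targets came from the part of the study's supplementary guide list that was used here, rows of the early and main activation results, which pair 2278 guides with 1987 features, 1449 of them matched by locus tag to the RefSeq gene table of R64. A planned match of guides to promoters was not run, as no promoter sequences were used here. The text names the 10 lost guides with the highest smallest CPM in the low fraction, the features with most lost guides, up to 3 lost guides per gene list, lost guides called in the main activation fit, the 3 guides on either side of each threshold and the 3 retained guides with the highest smallest CPM in the high fraction. Overlapping pairs and lost guides with reads in an activation high library were added after their values were seen.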

Additional observations from a re-analysis of the deposited data

Results flagged for a closer look

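Among 31 sets of 4 to 8 libraries that were examined, 4 had 1 library far from the others, where chance alone gives about 1 in 20. The rank 2 guide ctcaaattaaATCTCAGTTC stood at 121.1 CPM in the low library of round 1 replicate 2, the next value being 86.6. The PKH1 guide ggttatatgcTAAAATAAGT was at 19.0 CPM in that of round 1 replicate 1, and its nearest value was 40.5. For the lost guide of overlapping pair C, tGGAACTTTAAAAGGAATGT, round 2 replicate 1 gave 99.2 CPM, where the nearest other library gave 33.9. The share of guides at 1 to 4 reads was 36.2% in the repression high library of round 2 replicate 2, and the nearest value was 11.2%.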

How the results depend on the processing

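The number of lost guides moved with the rule. It was 104 as reported, 122 with at least 20 CPM in each low library (83 of them shared with the 104), 600 with at least 20 reads, 13 with at least 100 and 0 with at least 200. Allowing 1 read over the high libraries gave 201 guides and allowing 3 gave 273. Allowing under 5 in every high library gave 291, and leaving out the high library of round 2 replicate 2 gave 140, both chosen after seeing the data. Round 1 alone gave 1131 and round 2 alone 1225. Leaving out a sort replicate gave 208 to 551 guides, namely 303 and 447 without replicates 1 and 2 of round 1, and 551 and 208 without those of round 2. Fewer libraries at 0 can only enlarge the set when the minimum is unchanged. The median of lost guides read in an activation high library moved from 9.13% to 0.481% at 5 or more reads.

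All 104 guides kept their depletion call in the 9 other repression fits, an outcome set by their choice at 0 high fraction reads, so nothing is read from it. The activation call was 1 as reported and 0 with DESeq2, with the replicate block and without round 4, no lost guide having an unadjusted p under 0.05 there. It was 4 (2 up, 2 down) without a filter. Without round 2, and without replicate 1 of round 2 or of round 4, no lost guide was tested, so none could be called. The call was 1 when any other sort replicate was left out. The early calls numbered 4 as reported, 1 (enriched) with DESeq2, and 0 with glmQLFTest, without a filter and with the replicate block, where 6, 5 and 4 lost guides had an unadjusted p under 0.05. Causes of these changes were not tested. The counts before adjustment are given without a share over all tested guides, so nothing is read from them.

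High and low libraries share sort replicate numbers in the labels. Their deviations from the fraction means had correlations of -0.003 to 0.028 in repression, -0.039 to 0.127 in main activation and -0.014 in the early screen, so the numbers were not taken as pairs. With the replicate block, 13 guides were enriched and 19 depleted in the main activation fit, and aagtacaactACGTAAGCGG was at 0.29 (adjusted p = 0.962). Leaving out an early replicate was not run, as 1 library against 1 has no residual degrees of freedom. Pairing by the guide list alone was the only pairing used.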
